A study of Rattus norvegicus with 9 samples.

Results

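Chemokines and their receptors were taken from the expression data of adipose-derived mesenchymal stem cells (ASCs) by gene symbol, as all genes named Ccl, Cxcl, Ccr, Cxcr, or Ackr with a number, with Cx3cl1 and Cx3cr1. The table held 53 such genes among 35362, namely 33 ligands and 20 receptors, and 27 of the 53 had enough counts to be tested (18 ligands and 9 receptors). ASCs were grown from fat of male Sprague Dawley rats that were 6 weeks old and had been fasted for 12 h before the fat was taken, and RNA of unstimulated cells was sequenced at passage 3. SASCs came from subcutaneous fat of the groin, PASCs from perirenal fat, and EASCs from epididymal fat, with 3 samples in each group and no genotype or drug that differed between them. PASCs and EASCs are both visceral, and SASCs served as the shared reference of both visceral comparisons. Cells were enriched by collagenase digestion and adherence to plastic, with no sorting step given for the RNA samples, so a culture can hold other adherent cells. Per the methods, RNA was taken from wells of 12-well plates with 6 replicate wells per group, and the same prefix stands before all 9 sample titles. Which 3 wells were sequenced, and whether they held cells of different rats, is not given, so p-values measure only the spread between these samples, which may be technical.

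Chemokines are small secreted proteins that direct the migration of cells through G protein-coupled receptors, and they are grouped as CC, CXC, CX3C, and XC by the spacing of their first cysteines. Atypical receptors bind chemokines without classical G protein signaling and mostly remove them. In fat, stromal cells and their progenitors are a known source of Cxcl12, which retains stem cells and lymphocytes, and of Ccl2 and Ccl7, which draw monocytes.

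The 9 libraries held 17591916 to 30299032 counts, and genes of ribosomal RNA took 10.4% to 40.3% of the counts, the smallest shares being those of the 3 SASCs samples. Most ribosomal reads were counted both for Rn45s and for the genes inside it, so their shares of reads were smaller. Levels are given as CPM, counts relative to a library size scaled by TMM, which limits the weight of genes as abundant as these, and 3 counts in 1 library equalled 0.104 to 0.159 CPM, a limit that covers counting error only. A differentially expressed gene (DEG) had to pass both a fold change of 2 and an adjusted p of 0.05 in edgeR's quasi-likelihood test over all 14770 genes tested. The 13 mesenchymal stem cell markers examined were tested and detected in every group, but Pdgfra (-2.47 and -2.72 on the log2 scale), Dcn (-4.98 and -4.52), and Lum (-5.12 and -5.45) were downregulated in PASCs and EASCs, 2 markers were upregulated in EASCs, and Thy1, Nt5e, and Pdgfrb were not called against SASCs. The markers called were 23.1% of the 13 in PASCs and 38.5% in EASCs, beside 26.9% and 27.8% of all genes tested. The summed CPM of the 13 was 33359 to 35171 in SASCs, against 36402 to 42609.7 in PASCs and 37301 to 40638 in EASCs, of which Col1a1 made up 10697.5, 19134, and 20332 on average. Of 23 leukocyte markers in the table, 12 were tested and the summed level of the 23 was 58.5 to 64.3 in SASCs, against 140.4 to 146 in PASCs and 209 to 222 in EASCs, with 6 at 0 counts in all 9 samples, among them Cd3e, Ms4a1, Cd79b, Nkg7, and Cpa3, which mark T cells, B cells, NK cells, and mast cells. The 8 mesothelial markers tested of 11 summed to 20.1 to 21.8 in SASCs, against 99.2 to 106 in PASCs and 132 to 144 in EASCs, and the 13 endothelial markers tested of 14 to 94.0 to 98.9 in SASCs, against 43.4 to 49.6 in PASCs and 66.3 to 73.2 in EASCs (all in CPM, with the markers not tested included in the sums). The 5 pericyte markers tested of 6 summed to 89.5 to 97.6 in SASCs, against 69.9 to 79.3 in PASCs and 77.2 to 89.5 in EASCs, a sum of opposite changes, since 4 of the 5 (Notch3, Abcc9, Kcnj8, and Rgs5) were downregulated in both visceral groups and Cspg4 was upregulated in both, from a mean of 8.30 in SASCs to 66.6 in PASCs and 50.2 in EASCs. Of all genes tested, 14.9% were downregulated and 12.0% upregulated in PASCs, and 14.2% and 13.6% in EASCs. The 6 adipocyte markers tested of 7 summed to 111 to 119.7 in SASCs, against 26.5 to 28.0 in PASCs and 14.2 to 15.6 in EASCs. On the sums of these last 5 lists SASCs did not overlap with either visceral group (exact permutation p = 0.1, two-sided, the smallest that 3 against 3 samples can give), and the part of these cells in the results that follow was not tested. In cultures measured as a whole, fewer cells of a type and less RNA per cell cannot be told apart.

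The summed ligands were lower in both visceral groups than in SASCs. In EASCs, 18 of the 27 genes tested were DEGs against SASCs, 7 upregulated and 11 downregulated, where 27.8% of all genes tested were called, 13.6% upregulated and 14.2% downregulated. In PASCs, 14 were DEGs, 3 upregulated and 11 downregulated, against a background of 26.9% called, 12.0% upregulated and 14.9% downregulated. EASCs and PASCs differed in 9, of which 5 were higher and 4 lower in EASCs, with 7.39% of all genes called, 5.19% higher and 2.20% lower. Of the 18 ligands tested, 4 were upregulated and 9 downregulated in EASCs against SASCs, 0 and 9 in PASCs against SASCs, and 4 were higher and 2 lower in EASCs than in PASCs. All members called were thus 66.7%, 51.9%, and 33.3% of those tested in the 3 comparisons, and their median log2 fold changes were -0.10, -0.82, and 0.28, beside medians of 0.0061, -0.0082, and -0.0065 over all genes. These counts describe genes that passed a filter on low counts, which genes high in only 1 group can pass, and they were given no test of their own. Scaling by total counts moved the median of all genes by more than 0.1 in both comparisons with SASCs, to -0.39 in EASCs and -0.33 in PASCs, and then gave 1 upregulated and 12 downregulated members in EASCs and 3 and 13 in PASCs. Total counts include the ribosomal genes, whose shares were smallest in SASCs. With ribosomal genes removed under TMM the 2 medians were 0.015 and -0.0004, and with DESeq2 they were -0.012 and -0.022.

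The summed level of the 33 ligands was 5949 ± 92.7 CPM in SASCs, 1468 ± 49.3 in PASCs, and 2409 ± 23.1 in EASCs (SD, n = 3). Most of it was Cxcl12, and the other ligands together came to 703, 234, and 481 CPM. The 20 receptors summed to 96.6 ± 2.32, 133 ± 0.745, and 142 ± 1.44 CPM. On both sums the 3 samples of each group lay apart from those of the other groups, and the order from high to low was SASCs, EASCs, PASCs for the ligands and EASCs, PASCs, SASCs for the receptors. The receptor sum was carried by Cxcr7, while Ackr4 was lower in EASCs, and under scaling by total counts it was 114.4, 125.8, and 128.2 in SASCs, PASCs, and EASCs, so that the receptors differed less. The plot of the tested members shows that the ligands ranged from that of Cxcl12 down to single counts and that only Ackr4 and Cxcr7 among the receptors exceeded 20 CPM.

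**Figure D1:**
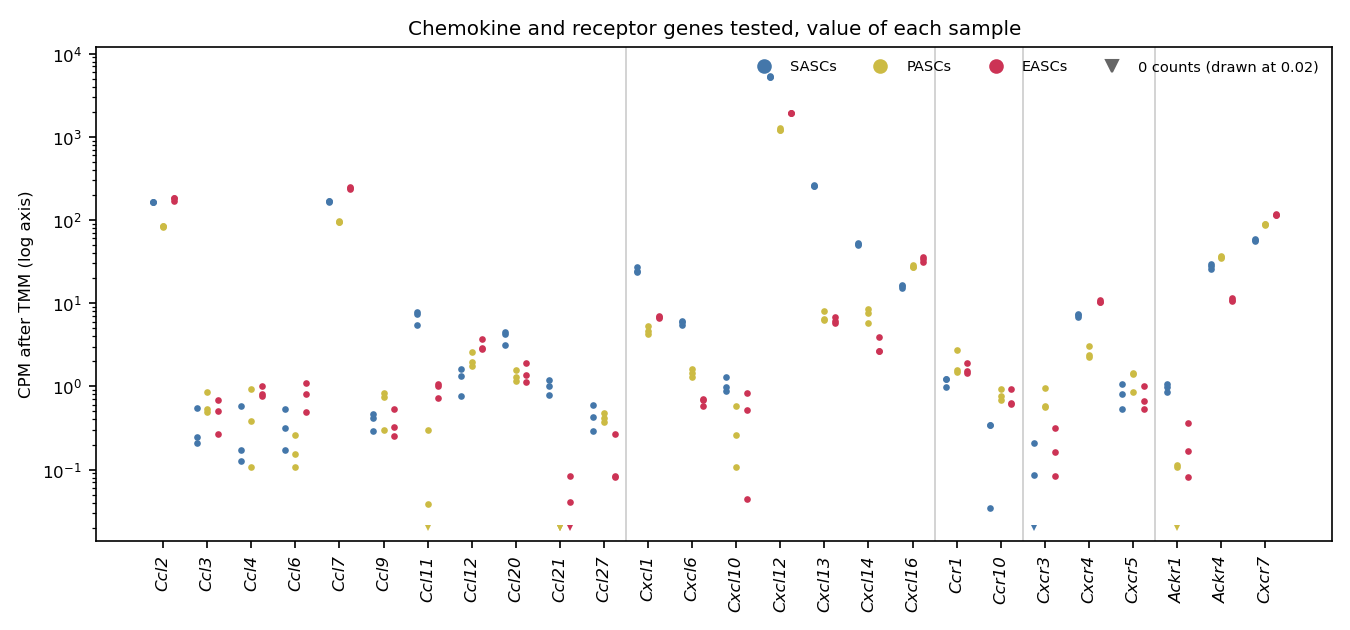
CPM after TMM (log axis) of 26 of the 27 chemokine and receptor genes tested, 1 point for each of the 9 samples, ordered as CC ligands, CXC ligands, CC receptors, CXC receptors, and atypical receptors, with triangles for samples at 0 counts. Cxcl12 stood above all other members in every sample, and the separation of the groups was wide for Cxcl13, Cxcl14, and Ccl11.

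The make-up of the ligand transcripts also differed. To compare genes with each other, counts were divided by gene length (FPKM), and each ligand was expressed as a share of the summed ligand FPKM of its sample. Cxcl12 took 50.8% ± 0.336 (SD, n = 3) of this sum in SASCs, 40.0% ± 0.877 in PASCs, and 32.5% ± 0.583 in EASCs. Ccl2 and Ccl7 together took 28.0% ± 0.207, 50.5% ± 0.362, and 61.8% ± 0.233. In EASCs, Ccl7 alone (34.9% ± 0.653) exceeded Cxcl12 in each of the 3 samples, and its mean FPKM of 299.5 stood beside 278 for Cxcl12. Cxcl13 was the second ligand of SASCs by this measure, with 15.2% ± 0.335, and made up 1.38% ± 0.205 and 0.640% ± 0.0449 in PASCs and EASCs. For each of these 4 ligands the shares of SASCs did not overlap with those of either visceral group. A share depends on all ligands of the sample, so the higher shares of Ccl2 and Ccl7 in PASCs went with lower levels of both genes.

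**Figure D2:**
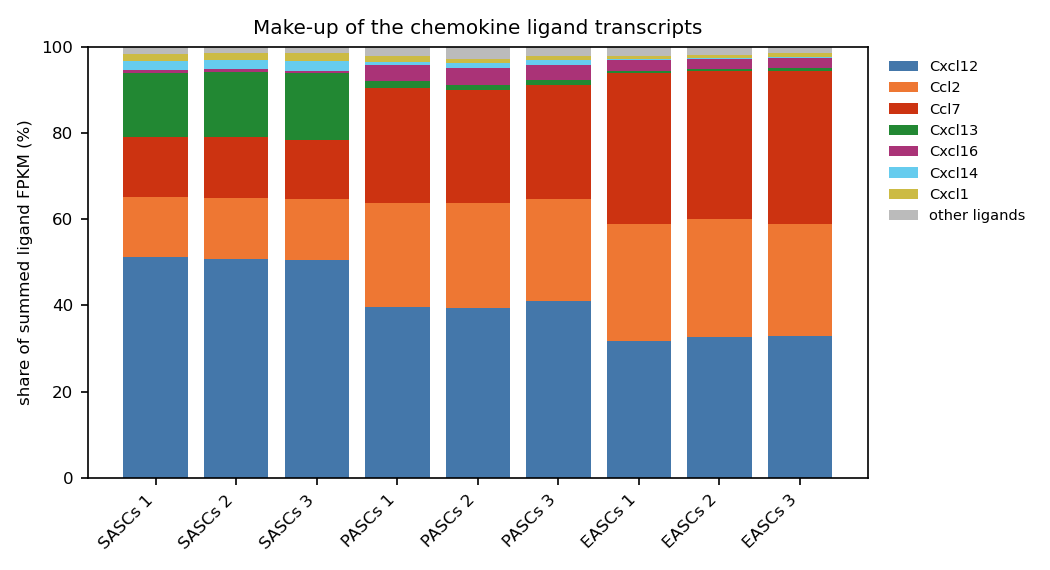
Share of the summed ligand FPKM (%) taken by each ligand in each of the 9 samples, with the 7 named ligands in color and the rest in gray. Cxcl12 made up 50.8% in SASCs and 32.5% in EASCs, while Ccl2 with Ccl7 made up 28.0% and 61.8%.

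Among the CC ligands, Ccl2 and Ccl7, the main monocyte attractants of the family, were abundant in all 3 groups and lowest in PASCs. Ccl2 (chr10:69412065-69413863, plus strand on rn6) was at 164, 163, and 163 CPM in the SASCs samples 1 to 3, at 82.9, 84.1, and 83.8 in PASCs, and at 186, 182, and 170.2 in EASCs. All EASCs samples were above all PASCs samples (log2 fold change 1.10, SE 0.053, edgeR adjusted p = 2.14e-15), and PASCs were below SASCs by slightly less than the fold change required (log2 fold change -0.97, SE 0.053, edgeR adjusted p = 4.07e-15). The difference between EASCs and SASCs was small and its sign depended on the scaling, at 0.13 with TMM (edgeR adjusted p = 0.0250) and -0.26 with total counts. Ccl7 (chr10:69423083-69424933, plus strand), the next gene on the chromosome, was at 170.2, 169, and 164 CPM in SASCs, against 94.5, 93.4, and 97.1 in PASCs and 247, 236, and 242 in EASCs. It followed the same order without overlap of the groups, with EASCs 2.55-fold above PASCs (log2 fold change 1.35, SE 0.052, edgeR adjusted p = 1.58e-17) and values against SASCs of 0.53 in EASCs and -0.82 in PASCs, both under a fold change of 2. Ccl12 (chr10:69476866-69478416, plus strand), a rodent relative of Ccl2, was at 1.23 ± 0.425 CPM in SASCs, 2.11 ± 0.428 in PASCs, and 3.13 ± 0.484 in EASCs and was upregulated in EASCs (log2 fold change 1.33, SE 0.27, edgeR adjusted p = 0.000109), a call that ended under scaling by total counts (0.94).

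Ccl11, the eosinophil attractant eotaxin, lies between Ccl7 and Ccl12 (chr10:69434965-69439566, plus strand) and was changed in all 3 comparisons. It had 224, 175, and 113 counts in SASCs (7.79, 7.43, and 5.52 CPM), 1, 8, and 0 counts in PASCs, and 24, 26, and 16 counts in EASCs (1.00, 1.05, and 0.716 CPM). SASCs were above EASCs and EASCs above PASCs in every sample. The gene was 7.43-fold lower in EASCs (log2 fold change -2.89, SE 0.29, edgeR adjusted p = 8.98e-10) and was also downregulated in PASCs (log2 fold change -5.74, SE 0.40, edgeR adjusted p = 6.55e-13). With only 9 counts in PASCs, 8 of them in sample 2, the size of the latter is uncertain, as SASCs exceeded PASCs by a ratio of 56.1 with a 95% exact counting interval of 29.3 to 123.3, and leaving out PASCs sample 2 gave a log2 fold change of -7.98, a larger change than the interval holds. Here and for the other genes such an interval covers counting error only and not the spread between samples, and reads are not independent molecules. EASCs were above PASCs (2.85, edgeR adjusted p = 0.000107), or 5.09 without PASCs sample 2. Thus these neighbors differed in direction against SASCs, as the plot of the gene clusters shows, and Ccl1 at the end of the cluster had 0 counts in every sample.

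The second CC cluster on chromosome 10 (Ccl5, Ccl9, Ccl6, Ccl3, and Ccl4 within 147 kb) was expressed at the level of single counts to 26 counts per sample. Ccl6, a rodent macrophage chemokine, was at 0.313, 0.170, and 0.537 CPM in SASCs, against 0.153, 0.262, and 0.106 in PASCs and 1.09, 0.811, and 0.492 in EASCs. EASCs lay above PASCs without overlap (log2 fold change 2.12, SE 0.57, edgeR adjusted p = 0.00516), whereas its samples overlapped with those of SASCs (log2 fold change 1.25, SE 0.52, edgeR adjusted p = 0.0337). Ccl4, a macrophage inflammatory protein, was at 0.174, 0.127, and 0.586 CPM in SASCs, against 0.383, 0.935, and 0.106 in PASCs and 1.00, 0.770, and 0.805 in EASCs, and EASCs were above SASCs (log2 fold change 1.60, SE 0.59, edgeR adjusted p = 0.0185). The calls of Ccl6 and Ccl4 in EASCs against SASCs were each lost when SASCs sample 1, SASCs sample 2, or EASCs sample 1 was left out, with log2 fold changes of 1.20, 0.94, and 0.97 for Ccl6 and 1.30, 1.25, and 1.47 for Ccl4. That of Ccl6 was also lost without EASCs sample 2 (1.24), with DESeq2 (1.23), without a filter on low counts (1.25), with a replicate block (1.23), and under scaling by total counts (0.88), which also ended that of Ccl4 (1.20). Without SASCs sample 3 the value of Ccl4 was 2.46. Ccl3 and Ccl9, ligands of Ccr1, ranged from 0.209 to 0.847 CPM across their samples and were called in no comparison. From start to end, introns included, Ccl3 and Ccl4 overlap by 62 bases on opposite strands, and later overlaps are measured in the same way. Ccr1, their receptor, was at 1.14 ± 0.146, 1.92 ± 0.676, and 1.62 ± 0.236 CPM in SASCs, PASCs, and EASCs and was not called either.

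**Figure D3:**
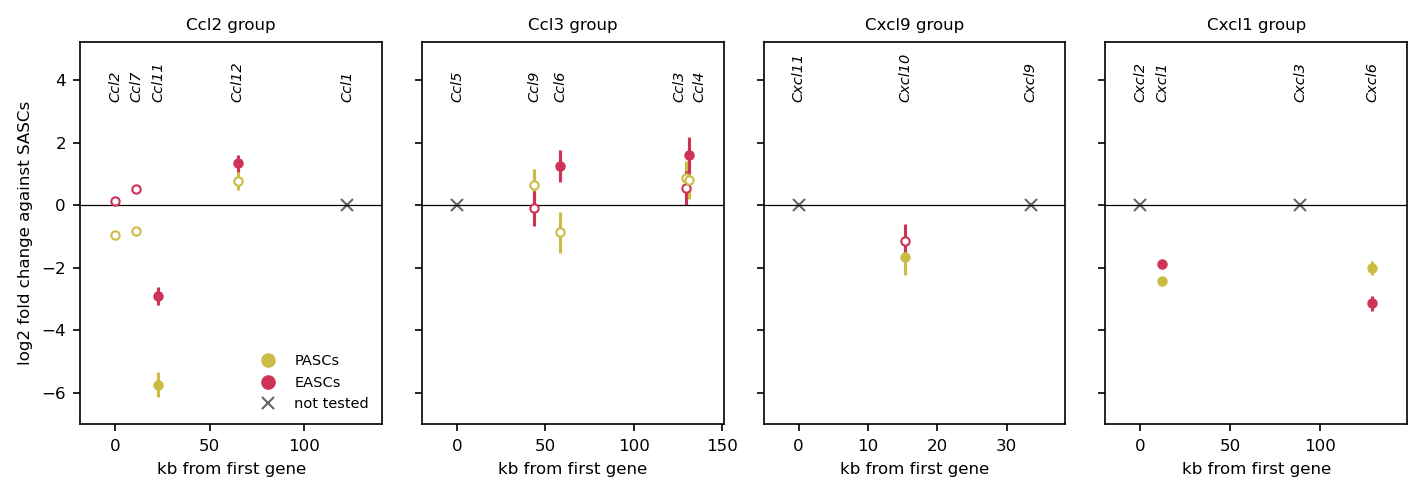
Log2 fold change against SASCs with its standard error for the ligands of 4 gene clusters on chromosomes 10 and 14, plotted by distance (kb) of each gene start from the first start of its cluster on rn6, with filled points for DEGs and crosses for genes not tested. In the Ccl2 group, Ccl11, lower in both visceral groups, stood beside Ccl7 and Ccl12, which were not lower in EASCs, and in the Cxcl1 group both tested genes were lower in both visceral groups.

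Ccl20 and Ccl21, which guide lymphocytes and dendritic cells, were downregulated in visceral ASCs. Ccl20, the ligand of Ccr6 (chr9:88918357-88921011, plus strand), was at 4.21, 4.50, and 3.17 CPM in SASCs, against 1.15, 1.31, and 1.59 in PASCs and 1.88, 1.13, and 1.39 in EASCs. Both visceral groups were below SASCs in every sample, by 2.97-fold in PASCs (log2 fold change -1.57, SE 0.25, edgeR adjusted p = 4.36e-06) and 2.70-fold in EASCs (log2 fold change -1.43, SE 0.25, edgeR adjusted p = 1.34e-05). Ccl21, a product of lymphatic endothelium that acts through Ccr7 (chr5:58197678-58198782, minus strand), had 29, 28, and 16 counts in SASCs, 0 in all PASCs samples, and 2, 1, and 0 in EASCs. It was at least 7.72-fold lower in PASCs, taking 3 counts per library as the floor (edgeR adjusted p = 7.67e-07), and SASCs exceeded EASCs by a ratio of 23.7 (95% exact counting interval 7.79 to 118, from 73 and 3 counts; edgeR adjusted p = 7.91e-06). The fitted log2 fold change in EASCs was -4.40, and -5.24 without EASCs sample 1, which held 2 of the 3 counts. Ccr7 had 14 counts in SASCs and 0 in the other groups, and Lyve1 and Prox1, markers of lymphatic endothelium, were at 0.912 and 1.11 CPM in SASCs, against 0.0785 and 0.448 in PASCs and 0.508 and 0.719 in EASCs. Ccl27, a ligand of Ccr10 known from skin, was at 0.436 ± 0.149, 0.424 ± 0.0514, and 0.144 ± 0.107 CPM, and its call in EASCs (log2 fold change -1.62, SE 0.63, edgeR adjusted p = 0.0252) was lost when any of SASCs samples 1 and 2 or EASCs samples 1 and 2 was left out (-1.32, -1.65, -1.35, and -1.33). The call was also lost without a filter on low counts (-1.60), and without EASCs sample 3 the value was -2.36. Its model shares 5 bases with Il11ra1 on the other strand, which had 9068 counts in all beside 73 for Ccl27.

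Of the CXC ligands, Cxcl12 was the most abundant member by CPM in all 3 groups and was lower in both visceral groups. Cxcl12 (chr4:149261044-149273891, plus strand), the stromal ligand of Cxcr4 and Cxcr7, was at 5346, 5219.8, and 5172 CPM in SASCs, against 1204, 1208, and 1290.1 in PASCs and 1935, 1929.9, and 1917 in EASCs. The 3 groups did not overlap, and the lowest SASCs sample was above the highest EASCs sample, which was above every PASCs sample. Against SASCs the level was 4.25-fold lower in PASCs (log2 fold change -2.09, SE 0.059, edgeR adjusted p = 1.06e-21) and 2.72-fold lower in EASCs (log2 fold change -1.44, SE 0.058, edgeR adjusted p = 2.53e-18). EASCs exceeded PASCs by 1.56-fold (log2 fold change 0.64, SE 0.057, edgeR adjusted p = 5.18e-10), which is under the fold change required.

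Cxcl13, the B cell attractant that acts through Cxcr5, had the largest fold change of the members with more than 100 counts in every sample. The gene (chr14:15253146-15258223, minus strand) was at 256, 253, and 261 CPM in SASCs, against 8.03, 6.28, and 6.51 in PASCs and 6.82, 5.76, and 6.08 in EASCs. SASCs were far above both visceral groups, which overlapped with each other (log2 fold change -0.16, SE 0.10, edgeR adjusted p = 0.258). The decrease was 41.2-fold in EASCs (log2 fold change -5.37, SE 0.081, edgeR adjusted p = 1.20e-27) and 36.8-fold in PASCs (log2 fold change -5.20, SE 0.08, edgeR adjusted p = 3.42e-27). Its receptor Cxcr5 stayed between 0.537 and 1.43 CPM and was called in no comparison. The model of Cxcr5 shares 107 bases with Bcl9l on the other strand, a gene with 41280 counts in all beside 201 for Cxcr5.

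Cxcl14, a ligand of stroma and epithelia, was graded over the 3 groups (chr17:9109731-9117754, plus strand). It was at 50.9, 49.7, and 52.6 CPM in SASCs, against 5.70, 8.60, and 7.63 in PASCs and 2.64, 3.89, and 2.68 in EASCs. All 3 groups were apart, and the gene was a DEG in every comparison, 16.5-fold lower in EASCs and 6.99-fold lower in PASCs than in SASCs (log2 fold change -4.05, SE 0.13, edgeR adjusted p = 2.96e-20, and log2 fold change -2.81, SE 0.12, edgeR adjusted p = 7.77e-18) and 2.36-fold lower in EASCs than in PASCs (log2 fold change -1.24, SE 0.15, edgeR adjusted p = 3.12e-07). Cxcl16, a membrane-bound ligand of Cxcr6 (chr10:57060005-57064600, minus strand), went the other way. Its levels were 16.4, 16.2, and 15.1 CPM in SASCs, against 27.4, 28.8, and 26.9 in PASCs and 35.9, 31.4, and 33.7 in EASCs, again without overlap. The gene was upregulated in EASCs (log2 fold change 1.08, SE 0.081, edgeR adjusted p = 3.64e-12), missed the fold change in PASCs (log2 fold change 0.80, SE 0.082, edgeR adjusted p = 1.91e-09), and lost the EASCs call under scaling by total counts (0.68). Cxcr6 itself had 5 counts in SASCs and 0 elsewhere.

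Cxcl1 and Cxcl6, which attract neutrophils, lie in 1 cluster on chromosome 14 and were both downregulated in visceral ASCs. Cxcl1 (chr14:18743678-18745457, minus strand) was at 24.6, 23.9, and 27.6 CPM in SASCs, against 5.28, 4.22, and 4.61 in PASCs and 7.03, 6.57, and 6.84 in EASCs. Cxcl6 (chr14:18860201-18920839, minus strand) was at 6.15, 5.52, and 5.86 CPM in SASCs, against 1.30, 1.61, and 1.43 in PASCs and 0.712, 0.689, and 0.582 in EASCs. The visceral groups differed in their order for the pair, PASCs being lowest for Cxcl1 and EASCs for Cxcl6, with no overlap in either case. Cxcl1 was 5.38-fold lower in PASCs (log2 fold change -2.43, SE 0.11, edgeR adjusted p = 1.25e-16) and 3.72-fold lower in EASCs (log2 fold change -1.89, SE 0.11, edgeR adjusted p = 1.02e-14). For Cxcl6 the decreases were 4.03-fold (log2 fold change -2.01, SE 0.21, edgeR adjusted p = 3.85e-09) and 8.77-fold (log2 fold change -3.13, SE 0.24, edgeR adjusted p = 5.80e-12), and EASCs were below PASCs (log2 fold change -1.12, SE 0.28, edgeR adjusted p = 0.00260). Cxcl2 and Cxcl3 of the same cluster had at most 11 counts in a sample. Cxcl10, the interferon-induced ligand of Cxcr3, had 37, 23, and 18 counts in SASCs, against 15, 7, and 2 in PASCs and 20, 13, and 1 in EASCs. It was downregulated in PASCs (log2 fold change -1.67, SE 0.57, edgeR adjusted p = 0.0113), and the call was lost without SASCs sample 1 (-1.49) and without PASCs sample 3 (-1.33), and without PASCs sample 1 the value was -2.41. In EASCs the threshold was missed (log2 fold change -1.14, SE 0.54, edgeR adjusted p = 0.0614) but was passed in 6 alternatives, namely under scaling by total counts (-1.504), without a filter (-1.14), with at least 1 CPM in 3 samples (-1.15), with only the groups compared (-1.14), with a replicate block (-1.30), and without EASCs sample 1 (-1.82). Without EASCs sample 3 it was -0.62. From start to end, Cxcl10 and Cxcl11 lie inside Art3 on the other strand, whose mean level was 31.4 CPM in SASCs, 0.483 in PASCs, and 0.280 in EASCs. These spans include introns and the use of strand in counting is not given, so whether reads of Art3 entered the counts is not known.

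Several of these ligands are known targets of NF-kappaB, and the bases before their start sites hold its binding motif. Promoters of RefSeq (build GRCr8) were found by gene ID for 39 of the 53 members, 19 of them among the genes tested. The 10-letter kappaB consensus, searched on both strands in the 250 bases before the start, was present in 9 of the 39 (23.1%) and in 6 of the 19 (31.6%), and in 6.33% of all 33469 promoters of the table. The 6 were those of Ccl7, Ccl9, Ccl20, Cxcl1, Cxcl6, and Cxcl10. The interferon-stimulated response element TTTCNNTTTC was present in 2 of the 39, those of Cxcl10 and Ccl19, and in 3.41% of all promoters. The 150 bases before the start of 4 ligands, and the 250 before that of Cxcl10, are printed 5′ to 3′ in the sense of the gene to show the shared motif, with the kappaB matches in capitals and, in Cxcl10, the first stretch of capitals marking the response element on the other strand.
Cxcl1 (chr14:17479322-17479471, minus strand): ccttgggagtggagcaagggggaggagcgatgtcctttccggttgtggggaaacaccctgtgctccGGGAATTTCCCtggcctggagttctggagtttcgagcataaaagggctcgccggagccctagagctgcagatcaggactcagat
Cxcl6 (chr14:17596418-17596567, minus strand): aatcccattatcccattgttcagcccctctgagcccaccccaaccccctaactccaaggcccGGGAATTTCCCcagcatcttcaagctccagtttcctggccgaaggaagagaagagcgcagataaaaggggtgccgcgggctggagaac
Ccl20 (chr9:91837009-91837158, plus strand): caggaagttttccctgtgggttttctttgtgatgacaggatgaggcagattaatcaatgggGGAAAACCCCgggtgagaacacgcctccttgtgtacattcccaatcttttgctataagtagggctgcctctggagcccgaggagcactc
Ccl7 (chr10:67513945-67514094, plus strand): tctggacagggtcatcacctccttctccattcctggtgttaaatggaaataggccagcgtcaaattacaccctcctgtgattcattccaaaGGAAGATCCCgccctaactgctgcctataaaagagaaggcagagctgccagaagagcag
Cxcl10 (chr14:15988816-15989065, plus strand): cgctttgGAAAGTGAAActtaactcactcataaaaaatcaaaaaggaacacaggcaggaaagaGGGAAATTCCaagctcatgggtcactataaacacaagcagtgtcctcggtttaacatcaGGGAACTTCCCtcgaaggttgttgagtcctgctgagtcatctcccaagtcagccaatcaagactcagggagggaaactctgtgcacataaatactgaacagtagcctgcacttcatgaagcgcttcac

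In Cxcl1 and Cxcl6 the matches start 84 and 88 bases before the start, and each is read on both strands, with the match on the other strand shifted by 1 base. Ccl20 and Ccl7 carry theirs 89 and 59 bases before the start on the other strand, and Cxcl10 carries them at 187 and 128. A match is a description of the sequence and not evidence of binding. The holders did not move as 1 group, since Cxcl1, Cxcl6, and Ccl20 were downregulated in both visceral groups, Ccl7 was 0.53 in EASCs and -0.82 in PASCs on the log2 scale, and Ccl9 was called in no comparison. Cxcl10 was downregulated in PASCs (-1.67) and not called in EASCs (-1.14).

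**Figure D4:**
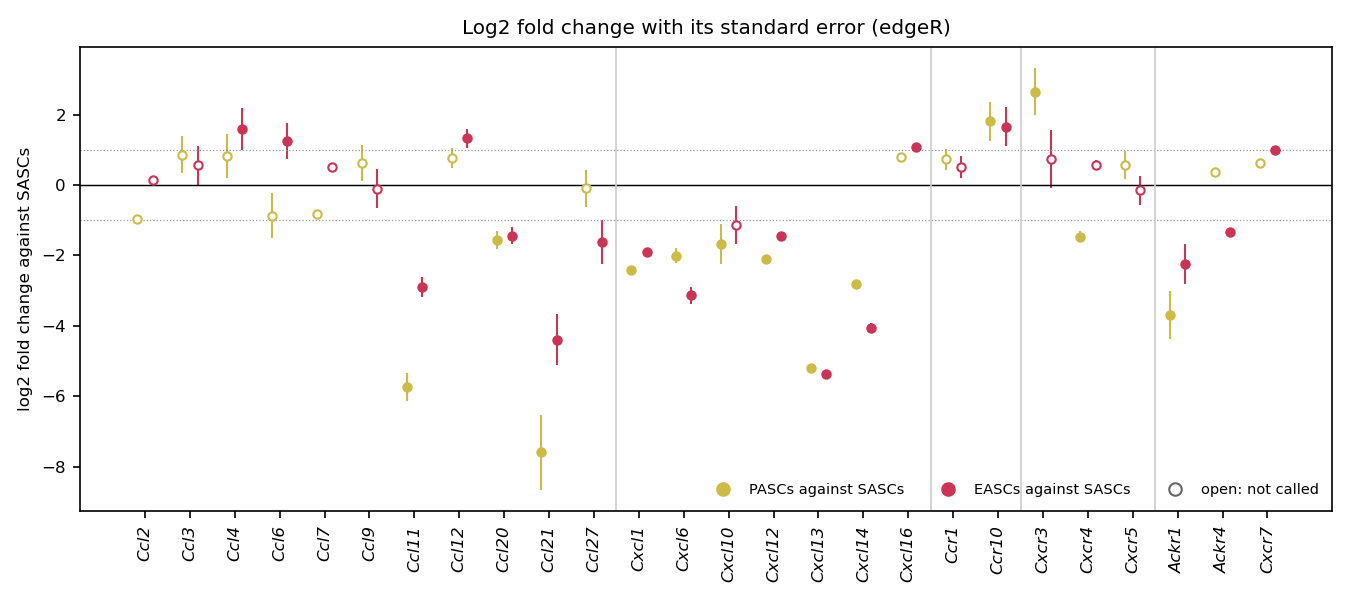
Log2 fold change against SASCs with its standard error (edgeR, n = 3 per group) of 26 of the 27 members tested, in PASCs and EASCs, with filled points for DEGs and dotted lines at a fold change of 2. Of the 7 CXC ligands tested, 6 were downregulated in PASCs and 5 in EASCs, beside 14.9% and 14.2% of all genes, Cxcl16 was the exception with positive values, and the point of Ccl21 in PASCs, which had 0 counts there, depends on the prior count of the fit and gives no size.

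Among the receptors, Cxcr4, the signaling receptor of Cxcl12, was lowest in PASCs and highest in EASCs. Cxcr4 (chr13:45314952-45318856, minus strand) was at 7.13, 7.34, and 6.83 CPM in SASCs, against 2.37, 3.07, and 2.22 in PASCs and 10.3, 10.4, and 11.0 in EASCs. The groups did not overlap, PASCs were 2.75-fold below SASCs (log2 fold change -1.46, SE 0.15, edgeR adjusted p = 3.12e-09), and EASCs were 4.09-fold above PASCs (log2 fold change 2.03, SE 0.15, edgeR adjusted p = 1.40e-11) and 1.49-fold above SASCs, which did not pass the fold change (log2 fold change 0.57, SE 0.13, edgeR adjusted p = 0.000415). In visceral ASCs the ligand and its receptor thus differed in unlike ways, since Cxcl12 was downregulated in both groups and Cxcr4 in PASCs. Endothelial markers moved with Cxcr4 in 1 respect, as 11 of the 13 tested were downregulated in PASCs against SASCs (14.9% of all genes) and 9 were higher in EASCs than in PASCs (5.19% of all genes). For EASCs against SASCs, 1 was upregulated and 1 downregulated. The part of endothelial cells in the values of Cxcr4 was not tested.

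Cxcr7, now named Ackr3, is an atypical receptor that takes up Cxcl12 and was the most abundant receptor by CPM (chr9:97355879-97367455, plus strand). Its levels were 58.1, 56.1, and 59.3 CPM in SASCs, against 88.5, 88.8, and 88.1 in PASCs and 115, 117, and 115 in EASCs. The order was opposite to that of Cxcl12 between SASCs and the visceral groups, with no overlap of samples. In EASCs the fold change lay on the threshold (log2 fold change 1.00, SE 0.054, edgeR adjusted p = 2.74e-15), and the call was lost with DESeq2 (0.98), with its size factors in edgeR (0.98), under scaling by total counts (0.61), with at least 1 CPM in 3 samples (0.995), and when SASCs sample 2 (0.98) or EASCs sample 2 (0.998) was left out, while the increase in PASCs was below it (log2 fold change 0.61, SE 0.055, edgeR adjusted p = 1.14e-10). Ackr4, which takes up Ccl19, Ccl21, and Ccl25 (chr8:112643838-112651664, minus strand), was at 25.6, 28.2, and 29.7 CPM in SASCs, against 37.0, 36.0, and 35.4 in PASCs and 11.0, 11.4, and 10.6 in EASCs. It was downregulated in EASCs against SASCs (log2 fold change -1.33, SE 0.086, edgeR adjusted p = 1.19e-13) and against PASCs (log2 fold change -1.71, SE 0.085, edgeR adjusted p = 3.29e-15), and PASCs were slightly above SASCs (log2 fold change 0.38, SE 0.078, edgeR adjusted p = 0.000108). From start to end, all of Ackr4 lies inside Acad11 on the other strand, which was at 23.5, 17.9, and 11.7 CPM in SASCs, PASCs, and EASCs. These spans include introns, so whether counted reads were shared by the pair is not known. Ackr1, which binds many chemokines and is known from red cells and venules, had 28, 20, and 22 counts in SASCs, against 3, 0, and 2 in PASCs and 4, 2, and 8 in EASCs and was downregulated in PASCs (log2 fold change -3.69, SE 0.68, edgeR adjusted p = 2.85e-05) and EASCs (log2 fold change -2.25, SE 0.57, edgeR adjusted p = 0.00101). The value in PASCs, from 5 counts, was -4.28 without PASCs sample 1 and -3.06 without PASCs sample 2, and that in EASCs was -2.91 without EASCs sample 3.

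**Figure D5:**
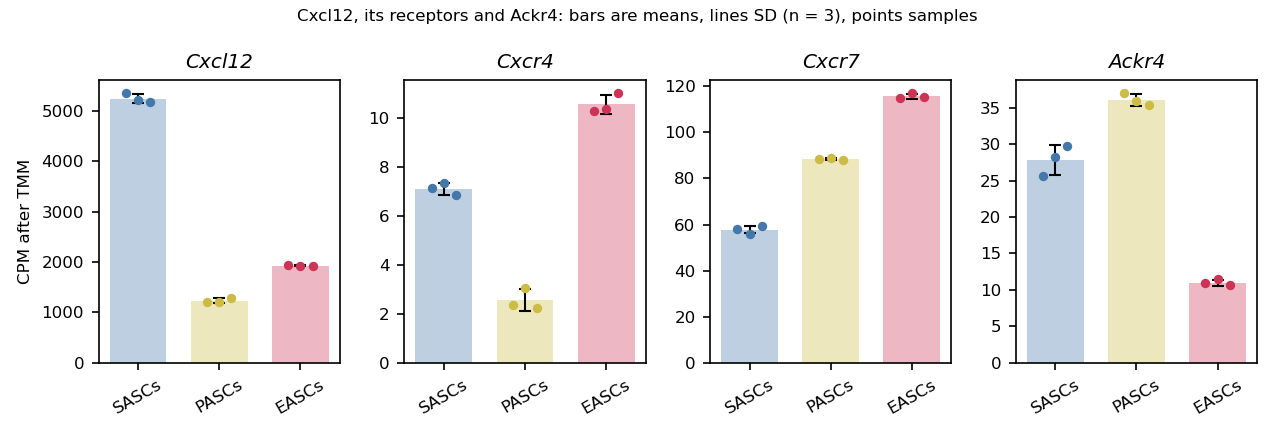
CPM after TMM of Cxcl12, its receptors Cxcr4 and Cxcr7, and Ackr4 in the 3 groups, with bars for means, lines for SD (n = 3), points for samples, and a separate axis from 0 for each gene. Cxcl12 was highest in SASCs, Cxcr4 and Cxcr7 in EASCs, and Ackr4 in PASCs, with no overlap between the groups.

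The receptors of leukocytes were rare. Ccr10, the receptor of Ccl27, had 1, 8, and 7 counts in SASCs, against 20, 25, and 13 in PASCs and 22, 15, and 14 in EASCs and was called higher in PASCs (log2 fold change 1.81, SE 0.55, edgeR adjusted p = 0.00493) and EASCs (log2 fold change 1.65, SE 0.56, edgeR adjusted p = 0.0104), calls that both ended without SASCs sample 1 (1.22 and 1.07), and in EASCs also without EASCs sample 1 (1.43) and under scaling by total counts (1.25). It overlaps Cntnap1 on the other strand by 1002 bases, a gene with 868 counts in all beside 125 for Ccr10. Of the 12 leukocyte markers tested, 7 were upregulated in PASCs and 11 in EASCs, beside 12.0% and 13.6% of all genes, and 0 were downregulated. Among them, the macrophage lysozyme Lyz2 was at 10.4 ± 1.26, 58.1 ± 2.23, and 85.6 ± 4.81 CPM (SD, n = 3) in SASCs, PASCs, and EASCs, and Csf1r, the receptor of the macrophage growth factor, at 3.54 ± 0.311, 12.6 ± 0.347, and 15.5 ± 1.62. Their part in the values of Ccr10, Ccl4, and Ccl6 was not tested. Cxcr3, the receptor of Cxcl9, Cxcl10, and Cxcl11, had 6, 2, and 0 counts in SASCs, against 25, 15, and 11 in PASCs and 2, 4, and 7 in EASCs. It was higher in PASCs than in SASCs (log2 fold change 2.65, SE 0.67, edgeR adjusted p = 0.00109) and lower in EASCs than in PASCs (log2 fold change -1.91, SE 0.62, edgeR adjusted p = 0.0194). From 8 counts in SASCs, the former was a ratio of 6.47 with a 95% exact counting interval of 3.05 to 15.8, and its log2 fold change was 3.81 without SASCs sample 1. The second call was lost without PASCs sample 1 (-1.60), EASCs sample 1 (-1.56), or EASCs sample 2 (-1.82).

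The remaining 26 members did not pass the filter, and 5 of them (Ccl1, Ccl26, Ccr6, Ccr8, and Ccr9) had 0 counts in all 9 samples. The other 21, among them Ccl5, Ccl22, Cx3cl1, Cx3cr1, Cxcl9, and Cxcr2, had at most 36 counts over the 3 samples of a group. The receptors Ccr6, Ccr7, and Cxcr6 were at or near 0 in the same cultures that held counts of their ligands Ccl20, Ccl21, and Cxcl16.

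Genes that act before or after the chemokines were examined as lists drawn up with earlier results of these data known, so their counts are descriptions. Of 27 tested genes of the NF-kappaB pathway and its targets, 1 higher and 7 lower in EASCs against SASCs, 0 higher and 8 lower in PASCs against SASCs, and 2 higher and 0 lower in EASCs against PASCs passed the test, which is 29.6%, 29.6%, and 7.41% beside 27.8%, 26.9%, and 7.39% of all genes. By direction, 25.9% of the list was lower in EASCs and 29.6% in PASCs, where 14.2% and 14.9% of all genes were, and 3.70% and 0% were higher, where 13.6% and 12.0% of all genes were. The median log2 fold changes were -0.47, -0.48, and 0.006. Zfp36, whose protein promotes decay of cytokine mRNAs, was at 248 ± 5.998 CPM in SASCs, 35.2 ± 0.304 in PASCs, and 39.7 ± 2.02 in EASCs (-2.82 and -2.65 against SASCs, edgeR adjusted p = 1.59e-24 and 3.52e-24). The kinase gene Ikbke (-2.01 and -2.27), Nfkbiz, a nuclear regulator of NF-kappaB (-1.37 and -1.54), and, at the threshold in PASCs, the adaptor gene Traf1 (-1.001 and -1.38) were also downregulated in PASCs and EASCs. Vcam1, an adhesion molecule for leukocytes, was downregulated in PASCs (-1.94), stood at -0.65 in EASCs, which was not called, and was higher in EASCs than in PASCs (1.29).

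Cytokines and receptors known to induce chemokines were more often lower than higher against SASCs, 4 higher and 11 lower of 25 in EASCs (median -0.80) and 4 higher and 9 lower in PASCs (median -0.70), and 0 higher and 1 lower between EASCs and PASCs (median 0.072). The shares called were 60.0%, 52.0%, and 4.0%, where 27.8%, 26.9%, and 7.39% of all genes were called, and the lower ones alone were 44.0% in EASCs and 36.0% in PASCs, beside 14.2% and 14.9% of all genes. Tlr4, the receptor of bacterial lipopolysaccharide, was at 58.8 ± 3.38 CPM in SASCs, 11.0 ± 1.30 in PASCs, and 12.3 ± 0.862 in EASCs (-2.41 and -2.26 against SASCs), and Lifr, the receptor of leukemia inhibitory factor, fell by 3.69 and 2.73 on the log2 scale in PASCs and EASCs. Il1rl1, the receptor of interleukin 33, was upregulated in both (1.19 and 2.11). Il1rn, the interleukin 1 receptor antagonist, was at 13.5 ± 0.790 CPM in SASCs, 222 ± 2.07 in PASCs, and 5.45 ± 0.981 in EASCs, so that it was upregulated in PASCs (log2 fold change 4.04, SE 0.075, edgeR adjusted p = 1.52e-25) and downregulated in EASCs (log2 fold change -1.31, SE 0.099, edgeR adjusted p = 4.14e-12). Il1a, which encodes interleukin 1 alpha, had 2 counts in SASCs, 81 in PASCs, and 43 in EASCs, ratios of 41.1 (95% exact counting interval 11.0 to 345) and 22.1 (5.75 to 188) over SASCs, with edgeR adjusted p = 7.27e-07 and 4.60e-05. Tnf and Ifng were listed at 0 in every sample.

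Of 19 tested genes of the interferon response, 4 higher and 3 lower passed the test in EASCs and 0 higher and 4 lower in PASCs against SASCs, and 6 higher and 0 lower in EASCs against PASCs, with medians of -0.15, -0.63, and 0.39. These were 36.8%, 21.1%, and 31.6% of the list beside 27.8%, 26.9%, and 7.39% of all genes, and in PASCs the 21.1% were all lower, beside 14.9% of all genes. Bst2, an antiviral membrane protein, was upregulated in EASCs (1.86 against SASCs and 1.21 against PASCs), as was the GTPase gene Gbp5 (1.34 and 1.23). Ifit3 and Oas1a, both induced by interferon, were downregulated in PASCs (-2.78 and -2.50), and Oas1a and Usp18, a brake on interferon signaling, were downregulated in EASCs (-1.53 and -1.45). Cxcl10 was called lower in PASCs as well, at levels of 2 to 15 counts.

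Of 32 tested genes of signaling below chemokine receptors, 15 higher and 3 lower passed the test in EASCs against SASCs, 6 higher and 3 lower in PASCs against SASCs, and 7 higher and 0 lower in EASCs against PASCs (medians 0.73, 0.33, and 0.21). The called shares of 56.2%, 28.1%, and 21.9% compare with 27.8%, 26.9%, and 7.39% over all genes, and those upregulated were 46.9% in EASCs and 18.8% in PASCs, beside 13.6% and 12.0% of all genes. The members with the largest changes included genes of hematopoietic cells, Pik3r5, a subunit of phosphoinositide 3-kinase gamma (3.97 in PASCs and 4.66 in EASCs, from 6 counts in SASCs), and the small GTPase gene Rac2 (1.40 and 2.13), which rose beside the leukocyte markers given above. Tiam1, an activator of Rac, rose in both groups (2.58 and 2.36). The regulators of G protein signaling differed, with Rgs2 downregulated in both (-3.09 and -1.70) and Rgs4 upregulated in EASCs (2.17) and at -0.33 in PASCs, which was not called.

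Of 15 tested proteases and binding partners, 3 higher and 4 lower passed the test in EASCs against SASCs, 4 higher and 4 lower in PASCs against SASCs, and 0 higher and 1 lower in EASCs against PASCs (medians -0.26, -0.25, and -0.15). In shares this was 46.7%, 53.3%, and 6.67% beside 27.8%, 26.9%, and 7.39% of all genes. Mmp2 and Dpp4, proteases that can truncate Cxcl12, were downregulated with it. Mmp2 was at 4337 ± 134 CPM in SASCs, 830.0 ± 6.87 in PASCs, and 567 ± 18.0 in EASCs, and Dpp4 at 13.0 ± 1.24, 1.44 ± 0.214, and 0.845 ± 0.347. Sdc1 and Sdc3, syndecans whose heparan sulfate binds chemokines, were upregulated in PASCs (1.79 and 2.26) and EASCs (2.41 and 2.44), as was the macrophage elastase gene Mmp12 (2.10 and 2.78).

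Genes that the naming rule did not take formed a mixed list, not all of them chemokines or chemokine receptors. Of the 9 tested, 4 higher and 2 lower passed the test in EASCs and 1 higher and 2 lower in PASCs against SASCs. Between EASCs and PASCs, 3 were higher and 1 lower in EASCs. The medians were 0.44, 0.24, and 0.26. The called shares were 66.7%, 33.3%, and 44.4% of these 9, beside 27.8%, 26.9%, and 7.39% of all genes. Rarres2, which encodes the chemoattractant chemerin, was at 427 ± 36.1 CPM in SASCs, 12.2 ± 1.03 in PASCs, and 35.7 ± 3.96 in EASCs (log2 fold change -5.12, SE 0.086, edgeR adjusted p = 1.95e-26 in PASCs, and log2 fold change -3.58, SE 0.077, edgeR adjusted p = 2.07e-24 in EASCs). Its receptor Cmklr1 was upregulated in EASCs (1.48) and stood at 0.24 in PASCs, which was not called. Pf4, the platelet CXC chemokine also made by macrophages, was at 2.72 ± 0.218 CPM in SASCs, 4.195 ± 0.366 in PASCs, and 14.98 ± 1.53 in EASCs and was upregulated in EASCs (log2 fold change 2.45, SE 0.14, edgeR adjusted p = 1.51e-14). Cd74, the receptor of Mif, was upregulated in PASCs (2.95) and EASCs (1.502), and Cmtm3 was downregulated in both (-1.60 and -1.45). Mif itself was listed at 0 in all samples.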

How the data were processed

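RNA of 9 cultures (SASCs, PASCs, and EASCs, 3 samples each) was sequenced on a HiSeq in paired-end mode. Per the labels and the methods, the authors removed adaptors and low-quality bases with cutadapt and FastX-Toolkit and aligned reads with TopHat. The methods name rn6 and the submitters' processing notes rn5 and TopHat2, and the contig names of the deposited table are those of rn6. The counting tool and the use of strand are not given in the sources used here. The deposited values are raw read counts per gene, with a gene length from the authors that was used for FPKM. Rn45s held as many counts as the ribosomal genes inside it (100.03% to 100.1% of their sum), so reads there were counted for more than 1 gene.

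From these counts, genes were filtered with filterByExpr (minimum count 10), scaled by TMM, and tested with the quasi-likelihood test of edgeR 4.0.16 in R 4.3.3, with all 9 samples in 1 model without a block. The Benjamini-Hochberg adjustment covered 14770 genes, and DEGs had to pass a fold change of 2 and an adjusted p of 0.05. On data simulated for EASCs against SASCs over 14770 genes, 195 of 200 changed genes were recovered with 2 false calls. All planted changes were past the fold change required, and the same spread was used for every gene. The recovery thus does not cover genes near the threshold or of wider spread. Replicate pairs scaled by total counts, ribosomal genes included, differed by more than sampling noise (chi-square per degree of freedom 6.26 to 291). The largest value was that of EASCs samples 2 and 3, where ribosomal genes took 15.9% and 40.3% of the counts. It therefore does not measure the spread of the other genes. Alternatives were DESeq2 1.42.0, limma 3.58.1 on log2(CPM + 1), glmTreat, other scalings and filters, fits without ribosomal genes or with only the groups compared, any fold change, a replicate block, and leaving out each sample. Exact permutation tests and counting intervals used scipy 1.17.1. Genes outside the family were named as the 5 with the largest change against SASCs in each pathway list. Lyve1, Prox1, Lyz2, Csf1r, Mif, Tnf, and Ifng were named after their values were seen. Of the 27 members tested, 1 is counted in the totals and not reported here. The members and lists were chosen with earlier results of these data known.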

Additional observations from a re-analysis of the deposited data

Results flagged for a closer look

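For 4 members the log2 fold changes of EASCs and PASCs against SASCs had opposite signs, and edgeR's adjusted p was under 0.05 in both and in EASCs against PASCs. Ccl6, whose signs were also opposite, did not reach this in PASCs against SASCs. The share of all genes that meet this rule was not counted, so the count has no background beside it. Ccl2 and Ccl7, which attract monocytes, and Cxcr4, the receptor of Cxcl12, were higher in EASCs and lower in PASCs than in SASCs, and EASCs exceeded PASCs by 1.10, 1.35, and 2.03 on the log2 scale. For Ccl2 this opposition did not hold under scaling by total counts, where EASCs were at -0.26 against SASCs. Signs held for Ccl7, Cxcr4, and Ackr4, but that scaling moved the median of all genes to -0.39 in EASCs and -0.33 in PASCs. With TMM, Ccl7 and Cxcr4 in EASCs (0.53 and 0.57) and Ackr4 in PASCs (0.38) were not much larger than this shift, so their sizes depended on the scaling. Ackr4, which takes up Ccl19 and Ccl21, was lower in EASCs and higher in PASCs than in SASCs, with a log2 fold change of -1.71 between EASCs and PASCs. Both comparisons with SASCs share the same 3 reference samples.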

How the results depend on the processing

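The calls of Cxcl1, Cxcl6, Cxcl12, Cxcl13, Cxcl14, and Ccl11 in both visceral groups, of Ackr4 in EASCs, of Ccl20 and Cxcr4 in PASCs, and of Ackr4, Ccl7, and Cxcr4 between EASCs and PASCs held in every alternative in which the gene was tested. Those of Ackr1, Ccl20, and Ccl21 in EASCs, of Ackr1, Ccl21, and Cxcr3 in PASCs, and of Ccl2, Ccl6, Ccl11, Cxcl6, and Cxcl14 between the visceral groups were lost only with limma or glmTreat. Both also ended the calls of Ccl4, Ccl6, Ccl12, Ccl27, Ccr10, and Cxcr7 in EASCs, of Ccr10 and Cxcl10 in PASCs, and of Cxcr3 between EASCs and PASCs, and glmTreat ended that of Cxcl16 in EASCs. Depth limits the rare members, since 3 counts in a library equal 0.104 to 0.159 CPM.

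Scaling by total counts left 1 upregulated member in EASCs. Without a filter 5 members were upregulated in PASCs, and with at least 1 CPM in 3 samples 2 were in EASCs and 0 in PASCs, where fewer members were tested and Cxcr7, still tested, fell to 0.995 in EASCs. With limma, where adding 1 CPM shrinks low genes by construction, 2648, 2542, and 506 genes were called in EASCs and PASCs against SASCs and between them, with 9, 8, and 5 members, of which 1, 0, and 3 were higher and, between the visceral groups, 2 lower. At any fold change 10298, 10227, and 4530 genes were called, with 8 members upregulated in PASCs and 9 higher in EASCs than in PASCs. With glmTreat, which tests for a fold change above 2, 10 members were called in EASCs, 1 of them upregulated, and 397 genes and 4 members (3 higher and 1 lower) between EASCs and PASCs. Leaving out 1 sample gave 4 to 7 upregulated members in EASCs, the lowest without SASCs sample 2.

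With a replicate block 18, 14, and 9 members were called, as without it, although in EASCs Ccl6 was lost (1.23) and Cxcl10 gained (-1.30). The replicate numbers did not pair the samples (correlations of deviations -0.030 to 0.071).

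Log2 fold changes that turned in sign were all of genes not called. Under scaling by total counts Ccl2 in EASCs turned to -0.26. Leaving out 1 sample gave ranges that crossed 0 for Cxcr5 (-0.43 to 0.13) and Ccl9 (-0.45 to 0.11) in EASCs, for Ccl27 (-0.28 to 0.22) and Ccl4 (-0.11 to 1.68) in PASCs, and, between EASCs and PASCs, for Ccr1 (-0.37 to 0.083), Ccl20 (-0.085 to 0.30), and Cxcl10 (-0.16 to 1.27). The causes were not tested.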

Other observations

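The members too rare to be tested were counted as sums over the 3 samples of a group. Ccl22, a ligand of Ccr4 made by macrophages and dendritic cells, had 2 counts in SASCs, 36 in PASCs, and 14 in EASCs, and Ccl17, the other ligand of Ccr4, had 1, 9, and 3. Cx3cr1, the fractalkine receptor of monocytes and macrophages, had 0 counts in SASCs and 14 in each visceral group, of which sample 3 held 9 in PASCs and 10 in EASCs. Ccl5 had 8, 3, and 21 counts and Cx3cl1, the fractalkine gene, had 15, 4, and 18. EASCs sample 2 alone held 13 counts of Ccl5 and 15 of Cx3cl1, and PASCs sample 2 all 4 of Cx3cl1. On the other side, Ccr7 and Ackr2, a receptor that clears inflammatory CC chemokines, each had 14 counts in SASCs and 0 in both PASCs and EASCs. Ccr3, Cxcr2, Cxcr6, and Ccl19 had 2, 4, 5, and 3 counts in SASCs and 0 in PASCs and EASCs. Cxcl3, a neutrophil attractant, had 10, 23, and 17 counts. Cxcl9, Cxcl11, and Cxcl17 had at most 14 counts in a group, and Ccl24, Ccl25, Ccl28, Ccr4, Cxcl2, and Cxcr1 at most 5.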
